A study of Saccharomyces cerevisiae with 8 samples.

Results

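The genes described here encode enzymes that build amino acids in budding yeast, together with GCN4, the gene of the transcription factor that activates them. They were chosen by name: 39 genes of arginine, histidine, lysine, aromatic amino acid, serine, threonine and isoleucine-valine synthesis and GCN4 itself. Of these, 38 were matched to a probe set by the gene symbol in the platform gene table, out of 5449 named S. cerevisiae genes, and ARG5,6 was not analysed here. Each of the 38 had a single probe set, and all passed the filter on dim signals.

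Gcn4 binds upstream of genes for most amino acid pathways and raises their transcription when cells run short of amino acids. Its amount is set mainly after transcription. Short upstream reading frames in the GCN4 mRNA hold back translation until the kinase Gcn2 modifies the initiation factor eIF2, and the protein is rapidly marked for the proteasome by the SCF ubiquitin ligase with the conjugating enzyme Cdc34. Cdc34 is the enzyme altered in the CDC34tm strain, and the arrays measure mRNA and not Gcn4 protein.

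The RNA of 8 cultures was hybridised to Affymetrix Yeast 2.0 arrays, each culture to its own array, with 4 cultures of the CDC34tm strain (RRC85) and 4 of the wild type (WT, DBY2059). Both strains are labelled MATα and isogenic, and both were grown at 30 °C for 3 to 4 doublings from stationary phase in synthetic medium with 2% dextrose, 0.25% glutamine and 25.2 mg/L leucine. Besides the CDC34tm mutation, the labels name a nourseothricin resistance gene, a partial disruption of the 3' region of PST1 and the leu2-3, 112 allele among the variables. The design text gives that allele for the WT strain, whereas the source name of every sample lists it, so which strain carries it cannot be told from the labels. The mutation is carried by 1 strain, so it and the marked locus cannot be told apart.

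Median signals of S. cerevisiae probe sets were 1162 to 1244 per array, far above a background level of 12.3 to 14.6 taken from S. pombe probe sets. The alpha-specific genes MF(ALPHA)1, MF(ALPHA)2 and STE3 read 5566 to 13540 on all 8 arrays, and the 5 a-specific genes MFA1, MFA2, STE2, STE6 and BAR1 read 60.2 to 302. WT replicates 1 and 4 stood apart from WT replicates 2 and 3 in heat shock genes. Over 22 heat shock genes the median log2 signal of WT replicates 1 and 4 was 12.6 and 12.8, that of WT replicates 2 and 3 was 11.1 and 10.8, and the CDC34tm arrays gave 10.6 to 10.8. The strains were therefore also compared with either pair of WT cultures omitted. Where a call of the 38 genes depended on the pair, those values are given. The same holds for genes called with all arrays in the lists related to these pathways, but not for the mating and heat shock genes. The part that the state of these WT cultures plays in the results was not tested.

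Amino acid synthesis genes were slightly lower in CDC34tm in part, while the mRNA of their activator GCN4 did not pass the test. Of the 38 genes, 13 were called lower and 0 higher, with an adjusted p under 0.05 in a limma fit across all tested probe sets. Among all 5437 probe sets tested, 19.7% were called lower and 18.9% higher. The median log2 fold change of the 38 genes was -0.10, against 0.00 over all tested probe sets. The changes were small: the largest fall, that of THR1, was 1.35-fold, and the other called genes fell by 1.10-fold to 1.22-fold. The 13 were spread over 6 pathways, with 4 in aromatic synthesis, 3 each in lysine and isoleucine-valine synthesis, and 1 each in arginine, histidine and threonine synthesis. By an unadjusted p under 0.05, 16 of the 38 were lower and 0 higher, where 24.5% of all tested probe sets were lower and 24% higher. The count called lower was 8 without WT replicate 1 or without WT replicate 3, 18 without WT replicate 4, and 8 when each array was centred on its median. Centring moved the median of the 38 genes to -0.05 and that of all tested probe sets to 0.05, and the calls over all of them from 1072 lower and 1028 higher to 889 and 1327.

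Most of the 38 genes had a narrow interval for their change in signal. For 36 of them the 95% interval of the fold change, not adjusted for the number of genes, lay within 1.5-fold in either direction. The exceptions were ARG3 and THR1. Among all tested probe sets 72.7% had such an interval. The median half-width of the interval was 0.117 on the log2 scale for the 38 genes and 0.196 over all tested probe sets. The shares called among all tested probe sets thus come from probe sets measured less precisely at the median. Signals of the 38 genes reached 14959 (LYS9), where the highest signal of any probe set was 16984 to 20441 per array. Whether fold changes are compressed in such bright probe sets was not tested. For 10 genes no CDC34tm signal overlapped a WT signal, all lower in CDC34tm, where 20.5% of all tested probe sets were lower without overlap and 19.1% higher. Those were HIS4, LYS1, LYS4, LYS21, TRP4, TRP5, ARO1, THR1, ILV2 and ILV3.

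**Figure D1:**
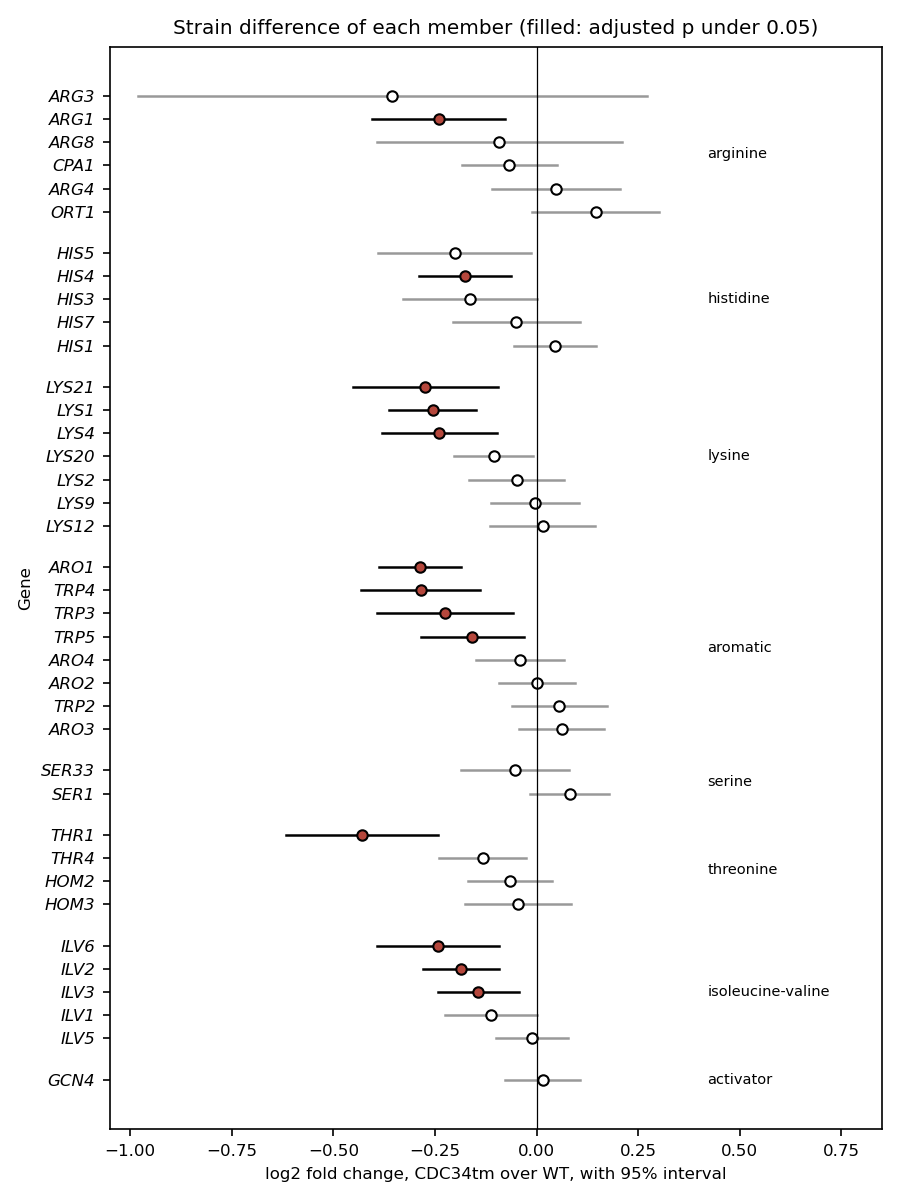
Log2 fold change of CDC34tm over WT (x axis, log2(signal + 16) scale) for each of the 38 genes, grouped by pathway, with the 95% interval of the fit as a line. Filled points are the 13 genes with an adjusted p under 0.05, all of them left of 0, with THR1 farthest among them at -0.43; ARG3 has the widest interval, from -0.98 to 0.27.

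Signals are listed below in the order of replicates 1 to 4 of each strain, on the linear scale deposited by the authors. GCN4 read 11083, 11807, 11290.4 and 11026 in CDC34tm and 11842, 11176, 11039 and 10701 in WT. The strains overlapped, and WT replicate 1 was the highest of all 8. The log2 fold change was 0.01 ± 0.0414 (SE, n = 4 per strain), with a 95% interval from -0.08 to 0.11 and a limma adjusted p of 0.804. At this scaling the ends of the interval lay within about 1.08-fold in either direction in GCN4 mRNA, and the interval says nothing of the protein. Centring each array on its median gave a log2 fold change of 0.06 (limma adjusted p = 0.363).

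Arginine synthesis runs from acetylated intermediates in mitochondria to ornithine, which Ort1 carries to the cytosol, and from there through citrulline and argininosuccinate. Of the 6 genes measured, 1 was called lower and 0 higher, with a median log2 fold change of -0.08. ARG1, the argininosuccinate synthetase gene, read 7002, 7686, 7383 and 7280.4 in CDC34tm and 9410.2, 9071, 8979.9 and 7376 in WT. Its lowest WT culture, replicate 4, lay within the CDC34tm range. The log2 fold change was -0.24 ± 0.0731 (SE, n = 4 per strain, limma adjusted p = 0.0261). ARG1 was no longer called when any single array other than CDC34tm replicate 2 or WT replicate 4 was omitted (adjusted p = 0.0536 to 0.0724), after centring (0.0732), or when WT replicates 2 and 3 were omitted together (0.107).

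ARG3, the ornithine carbamoyltransferase gene, varied more among the WT cultures than any other of the 38 genes. It read 1806, 3593, 3336 and 1299 in WT and 1763, 1714, 1778 and 1946 in CDC34tm. WT replicates 2 and 3 lay far above every CDC34tm culture, whereas WT replicate 4 lay below all of them. The SD of its log2 signal was 0.702 in WT and 0.0785 in CDC34tm, and the strain difference was not called (log2 fold change -0.35, limma adjusted p = 0.343). Leaving out WT replicates 1 and 4 gave -0.94 (adjusted p = 1.91e-05), leaving out WT replicates 2 and 3 gave 0.23 (adjusted p = 0.127), and so the direction depended on which WT cultures were included. Leaving out WT replicate 4 alone also brought ARG3 past the threshold (adjusted p = 0.0424).

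ARG8, which encodes the acetylornithine aminotransferase of mitochondria, was, like ARG3, higher on WT replicates 2 and 3 than on WT replicates 1 and 4. It read 3054, 3906, 4109 and 2646 in WT and 2876, 2967, 3367 and 3495 in CDC34tm. With all arrays ARG8 was not called (log2 fold change -0.09, limma adjusted p = 0.622). The strain difference came to -0.34 when WT replicates 1 and 4 were omitted (adjusted p = 0.0121) and to 0.15 when WT replicates 2 and 3 were (adjusted p = 0.199). Given that order of the WT cultures, a larger fall in the former fit was fixed beforehand. CPA1, the small subunit of carbamoyl phosphate synthetase, had a log2 fold change of -0.07, ARG4, the argininosuccinate lyase gene, 0.05, and ORT1 0.15, none of them called. CPA1 was called lower with WT replicates 1 and 4 omitted (-0.15, adjusted p = 0.0425) and stood at 0.01 with the other pair omitted. ARG4 ran the other way among the WT cultures, with replicates 1 and 4 above replicates 2 and 3.

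**Figure D2:**
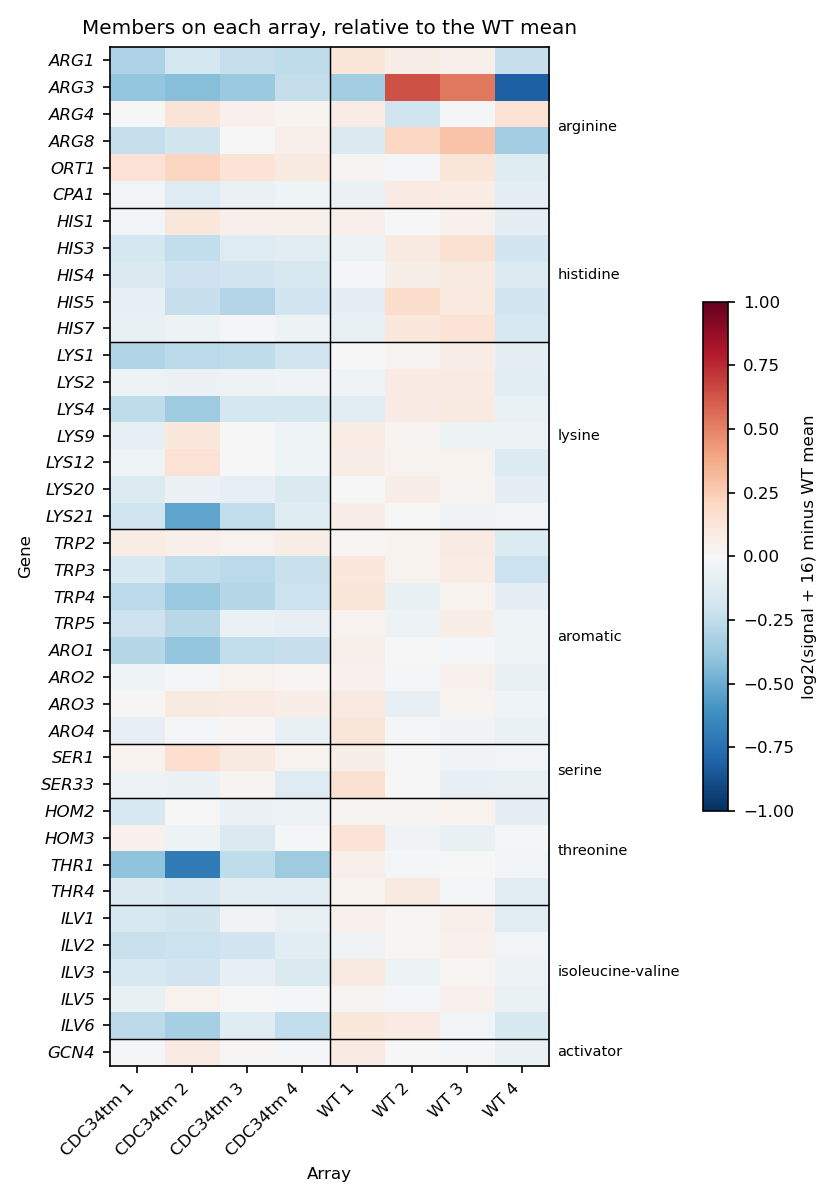
Log2(signal + 16) of each of the 38 genes (rows, grouped by pathway) on each of the 8 arrays (columns), as the difference from the mean of the 4 WT arrays of the same gene. Blue is below the WT mean and red above it; ARG3 and ARG8 are highest on WT 2 and WT 3, and THR1 and LYS21 are lowest on CDC34tm 2.

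Histidine synthesis gave 1 gene called lower of 5 and 0 higher, with a median of -0.16. HIS4, whose product carries out several steps of the pathway, read 9571, 9179.9, 9281 and 9480.2 in CDC34tm and 10517, 11047, 11265 and 9631 in WT. The strains did not overlap, although WT replicate 4 lay just above the highest CDC34tm culture. Its log2 fold change was -0.18 ± 0.0508 (SE, n = 4 per strain, limma adjusted p = 0.0213). It narrowly lost its call when replicate 2 or replicate 3 of either strain was omitted (adjusted p = 0.0505 to 0.0526) and in eBayes without the trend (0.0531). After centring the adjusted p was 0.0687, and without WT replicates 2 and 3 together it was 0.141.

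HIS5, the histidinol-phosphate aminotransferase gene, had a larger SE and was not called (log2 fold change -0.20 ± 0.0844, SE, limma adjusted p = 0.0839). It read 4239, 3823, 3672 and 3929 in CDC34tm and 4234, 5089, 4824 and 3943 in WT. The log2 fold change of HIS3, for imidazoleglycerol-phosphate dehydratase, was -0.16 (adjusted p = 0.105), that of HIS7, for imidazole glycerol phosphate synthase, -0.05, and that of HIS1, for the first enzyme of the pathway, 0.05. Like ARG3, the genes HIS3, HIS4, HIS5 and HIS7 were higher on WT replicates 2 and 3 than on WT replicates 1 and 4. Without WT replicate 4 alone, HIS3 (adjusted p = 0.0226) and HIS5 (0.0279) were called lower, and HIS5 was also called after quantile normalization (0.0487). Without WT replicates 1 and 4, all 4 of these were called lower, and without WT replicates 2 and 3, no histidine gene was. As these 4 share that order of the WT cultures, a larger fall in the former fit was fixed beforehand and adds no support. In the former fit HIS3 stood at -0.28 (limma adjusted p = 0.00378), HIS4 at -0.25 (0.00203), HIS5 at -0.34 (0.00361) and HIS7 at -0.17 (0.0258).

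Lysine is made in yeast through alpha-aminoadipate. The homocitrate synthases Lys20 and Lys21 start the route, Lys4 and Lys12 follow, Lys2 reduces aminoadipate, and Lys9 and Lys1 form and split saccharopine. Of 7 genes, 3 were called lower and 0 higher, with a median of -0.11. LYS1, for the last step, read 5415, 5536, 5608 and 5798 in CDC34tm and 6689, 6802, 6995 and 6233 in WT. Every CDC34tm culture lay below every WT culture, with a log2 fold change of -0.26 ± 0.0481 (SE, n = 4 per strain, limma adjusted p = 0.00289). LYS4, the homoaconitase gene, read 4623, 4309, 4859 and 4870.2 in CDC34tm and 5111, 5825, 5863 and 5255 in WT. It too was separate between the strains (log2 fold change -0.24, limma adjusted p = 0.0152), but its call was lost without WT replicates 2 and 3 (-0.15, adjusted p = 0.0726).

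The paralogs LYS20 and LYS21 were both measured. LYS21 read 6014, 4783, 5804 and 6330.5 in CDC34tm and 7239, 6874, 6722 and 6758 in WT, and was called lower (log2 fold change -0.27 ± 0.0797, SE, limma adjusted p = 0.0223). CDC34tm replicate 2 was its lowest array by a wide margin, and omitting WT replicate 1 (adjusted p = 0.0528) or WT replicates 1 and 4 (0.0671) ended the call. LYS20 read 9576, 10098, 9965 and 9497 in CDC34tm and 10512, 11028, 10753 and 9853 in WT, and was not called (log2 fold change -0.11, limma adjusted p = 0.0815), though it was without WT replicate 4 (adjusted p = 0.0305) and without WT replicates 1 and 4 together (0.0269). Whether the paralogs respond differently was tested on the log2 ratio of LYS21 to LYS20 per array, which was -0.78 ± 0.214 in CDC34tm and -0.61 ± 0.0800 in WT (SD of 4 arrays each). The difference of -0.17 was within the spread (exact permutation test, two-sided p = 0.171, adjusted p = 0.257 over 6 such pairs). How far related transcripts bind each other's probes was not tested. LYS2 (-0.05), LYS9 (0.00) and LYS12 (0.01) were not called. Omitting WT replicates 1 and 4 brought LYS2 just past the threshold (-0.13, adjusted p = 0.0462).

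Aromatic amino acids share the route to chorismate, from which tryptophan branches off. Of 8 genes, 4 were called lower and 0 higher, with a median of -0.10. Within the common route, ARO1 was lower and the genes on either side of it were not called. ARO1 encodes a multifunctional enzyme that carries the route from the product of Aro3 and Aro4 almost to chorismate. It read 7332, 6849, 7541 and 7619.7 in CDC34tm and 9246, 8989, 8885 and 8675 in WT. The lowest WT culture was well above the highest CDC34tm culture, and ARO1 had the smallest adjusted p of the 38 genes (log2 fold change -0.29 ± 0.0449, SE, n = 4 per strain, limma adjusted p = 0.00111). ARO2, for chorismate synthase, had a log2 fold change of 0.00, with a 95% interval from -0.09 to 0.10.

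ARO3 and ARO4 encode the paralogous DAHP synthases at the entry to the route, which are inhibited by phenylalanine and tyrosine respectively. ARO3 read 7495, 7892, 7864 and 7757 in CDC34tm and 7908, 7008, 7575 and 7244 in WT (log2 fold change 0.06, limma adjusted p = 0.322). ARO4 read 8766, 9156, 9390.4 and 8831 in CDC34tm and 10096, 9198, 9050.0 and 8883 in WT (log2 fold change -0.04, limma adjusted p = 0.529). Neither was called and both overlapped between the strains. The log2 ratio of ARO4 to ARO3 per array was 0.22 ± 0.0284 in CDC34tm and 0.32 ± 0.0602 in WT (SD of 4 arrays each) and did not overlap. Its exact permutation p of 0.0286, two-sided, is the smallest that 4 arrays against 4 can give, and over the 6 pairs it came to 0.0571. The 6 pairs include BAT2 to BAT1, described below, whose outcome was fixed beforehand, and counting it lowers this adjusted p.

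In the tryptophan branch, TRP4, TRP3 and TRP5 were lower and TRP2 was not called. TRP4, the anthranilate phosphoribosyltransferase gene, read 2179.8, 2033, 2159.5 and 2261 in CDC34tm and 2870.3, 2505, 2692 and 2476 in WT, with no overlap (log2 fold change -0.29 ± 0.0657, SE, limma adjusted p = 0.00786). TRP5, for tryptophan synthase, read 7459, 7095, 8235 and 8147 in CDC34tm and 8825, 8297, 9025 and 8348 in WT. The strains were separate by a small margin, and TRP5 lay at the threshold (log2 fold change -0.16, limma adjusted p = 0.0499). That call was lost when WT replicates 1 and 4 or WT replicates 2 and 3 were left out (adjusted p = 0.0936 and 0.095), and without any single array other than CDC34tm replicate 3 (0.0512 to 0.122).

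Trp2 and Trp3 together form anthranilate synthase, the first enzyme of the tryptophan branch. TRP3 read 2989, 2788, 2742 and 2834 in CDC34tm and 3567, 3396, 3495 and 2859 in WT (log2 fold change -0.22, limma adjusted p = 0.0384). On WT replicate 4 it lay within the CDC34tm range. Its call was lost without any single array other than WT replicate 4 (adjusted p = 0.0533 to 0.09), after centring (0.0748) and without WT replicates 2 and 3 (0.127). TRP2 read 5889, 5785, 5722 and 5870.2 in CDC34tm and 5675, 5743, 5908 and 5088 in WT (log2 fold change 0.06, limma adjusted p = 0.43). The log2 ratio of TRP3 to TRP2 was -1.03 ± 0.0384 in CDC34tm and -0.75 ± 0.0657 in WT (SD of 4 arrays each), without overlap. Its difference of -0.28 had an exact permutation p of 0.0286, two-sided, again the smallest possible, and 0.0571 over the 6 pairs. That adjusted p is likewise lowered by counting the BAT2 to BAT1 pair.

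**Figure D3:**
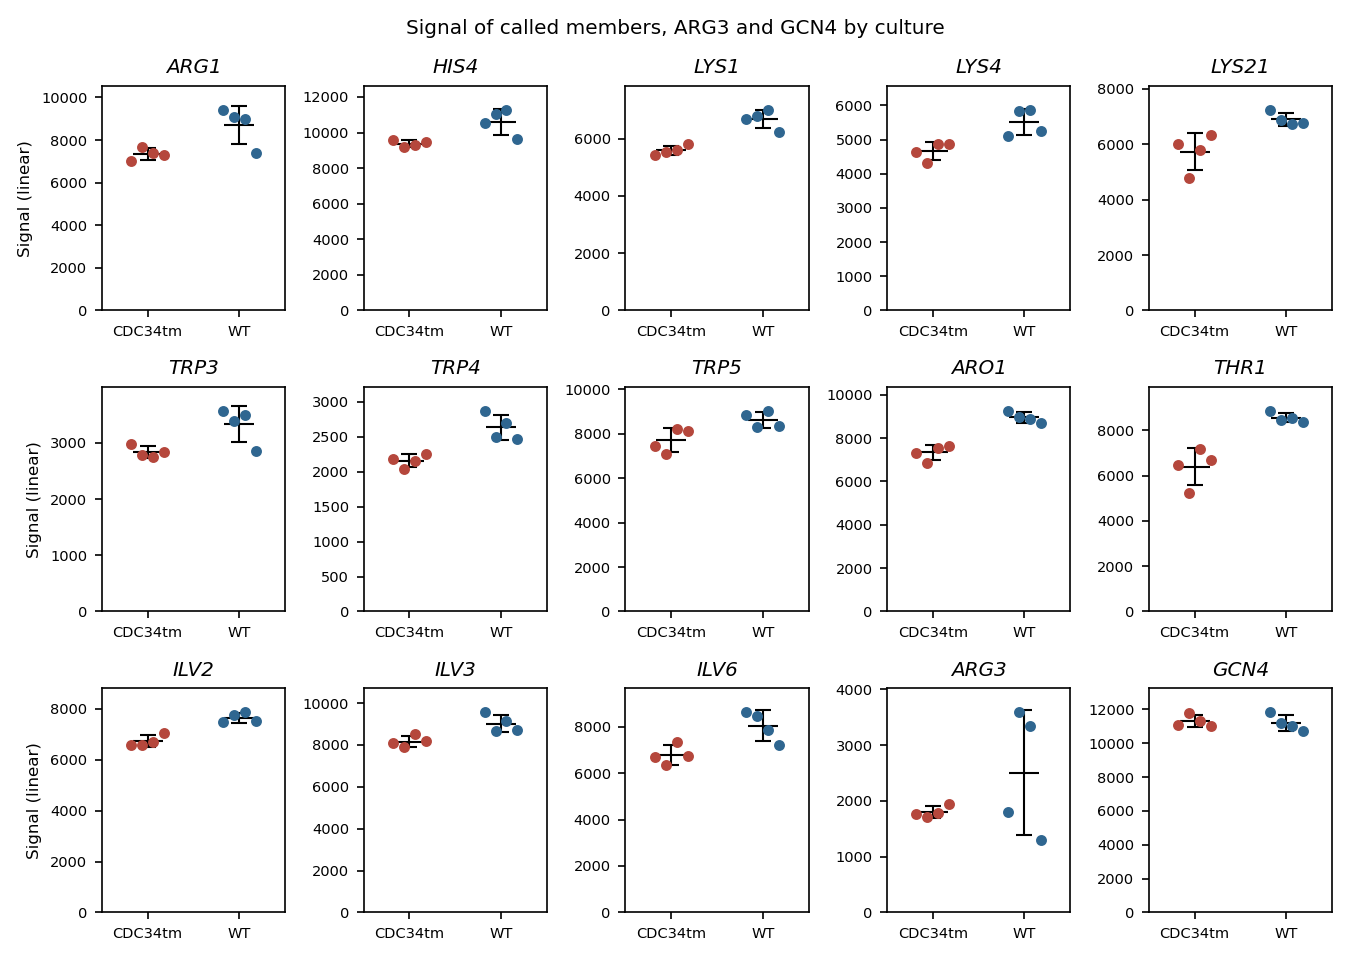
Signal on the linear scale (y axis, from 0) of the 13 called genes, ARG3 and GCN4 in the 4 CDC34tm cultures (red) and the 4 WT cultures (blue); horizontal marks are means and error bars the SD. THR1 shows the largest fall of the called genes, from 8561 to 6393 on average, ARG3 splits the WT cultures, and GCN4 lies at 11302 and 11189 on average.

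Serine synthesis from 3-phosphoglycerate was represented by SER33, a 3-phosphoglycerate dehydrogenase gene, and SER1, the phosphoserine aminotransferase gene, and neither was called. SER1 read 8502, 9311, 8838 and 8517 in CDC34tm and 8653, 8328, 8106 and 8134 in WT (log2 fold change 0.08, limma adjusted p = 0.161). After quantile normalization SER1 passed the threshold on the higher side (adjusted p = 0.0291). SER33 had a log2 fold change of -0.05, and its paralog SER3, from a list of other enzymes, -0.01. The log2 ratio of SER33 to SER3 differed between the strains by -0.04 (exact permutation p = 0.743, two-sided, adjusted p = 0.743 over the 6 pairs).

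The route from aspartate to threonine passes through Hom3, Hom2 and Hom6 to homoserine, which Thr1 phosphorylates and Thr4 turns into threonine. Of the 4 genes among the 38, 1 was called lower and 0 higher, with a median of -0.10. THR1, the homoserine kinase gene, read 6463, 5251, 7179 and 6678 in CDC34tm and 8854, 8438, 8568 and 8382 in WT. The WT cultures lay within a narrow band above all CDC34tm cultures, and CDC34tm replicate 2 was the lowest. Its log2 fold change was -0.43 ± 0.0837 (SE, n = 4 per strain, limma adjusted p = 0.00346). Omitting WT replicates 1 and 4 gave -0.42, and omitting WT replicates 2 and 3 gave -0.44.

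THR4, the threonine synthase gene, missed the threshold narrowly (log2 fold change -0.13, limma adjusted p = 0.0503). It read 8206, 8056, 8398 and 8357 in CDC34tm and 9275, 9646, 8948 and 8378 in WT, where the WT replicate 4 value fell just inside the CDC34tm range. THR4 was called lower when that culture was omitted (adjusted p = 0.0161) or WT replicates 1 and 4 together (0.0229), under a stricter filter on dim signals (0.0499) and with all probe sets of a gene averaged (0.0493). Omitting WT replicates 2 and 3 gave an adjusted p of 0.187. HOM3, the aspartate kinase gene (-0.05), and HOM2, for aspartate semialdehyde dehydrogenase (-0.06), were not called. HOM6, the homoserine dehydrogenase gene between HOM2 and THR1 in the route and not among the 38, was called higher. It read 11293, 12467, 11672 and 11327 in CDC34tm and 11045, 10728, 10664 and 10607 in WT (log2 fold change 0.12, limma adjusted p = 0.0412). That call was lost with either pair of WT cultures omitted (0.0797 and 0.13).

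Isoleucine and valine share their enzymes, with threonine deaminase (Ilv1) feeding the isoleucine branch. Of 5 genes, 3 were called lower and 0 higher, and the median was -0.14. Acetolactate synthase consists of the catalytic subunit Ilv2 and the regulatory subunit Ilv6, and both of their genes were lower. ILV2 read 6572, 6583, 6699 and 7062 in CDC34tm and 7476, 7767, 7874 and 7504 in WT, with no overlap (log2 fold change -0.19 ± 0.0415, SE, n = 4 per strain, limma adjusted p = 0.00672). ILV6 read 6691, 6356, 7361 and 6747 in CDC34tm and 8633, 8479.5, 7870.5 and 7194 in WT (log2 fold change -0.24, limma adjusted p = 0.0176). WT replicate 4 of ILV6 lay within the CDC34tm range. The log2 ratio of ILV6 to ILV2 differed between the strains by -0.06, within the spread (exact permutation p = 0.543, two-sided, adjusted p = 0.651 over the 6 pairs).

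ILV3, the dihydroxyacid dehydratase gene, read 8091, 7883, 8505 and 8171 in CDC34tm and 9571, 8686, 9122 and 8699 in WT, and was called lower without overlap (log2 fold change -0.14, limma adjusted p = 0.0299). The call was lost without WT replicates 1 and 4 (adjusted p = 0.0752), after centring (0.167), in eBayes without the trend (0.0735), and when any single array other than CDC34tm replicate 3, WT replicate 2 or WT replicate 4 was omitted (0.0609 to 0.0708). ILV5, for the reductoisomerase between Ilv2 and Ilv3, had a log2 fold change of -0.01, with a 95% interval from -0.10 to 0.08. ILV1, at -0.11, was not called (adjusted p = 0.106), though it was without WT replicate 4 (0.0444).

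Beyond ILV3 the branched-chain route continues to transamination and to leucine, where log2 fold changes reached -1.59. BAT1, the mitochondrial branched-chain aminotransferase gene, read 5088, 4527, 5278 and 5149 in CDC34tm and 8419, 8191, 8521 and 8342 in WT (log2 fold change -0.74, limma adjusted p = 1.33e-05). BAT2, its cytosolic counterpart, read 1704, 1450.0, 1742 and 1753 in CDC34tm and 1129.8, 1340.4, 1176 and 1123 in WT (log2 fold change 0.47, limma adjusted p = 0.00243). The log2 ratio of BAT2 to BAT1 was thus higher in CDC34tm by 1.21, without overlap (exact permutation p = 0.0286, two-sided, the smallest possible, adjusted p = 0.0571 over the 6 pairs). Both genes were already separate between the strains in opposite directions, so this outcome was fixed beforehand and adds no support. Of 5 leucine synthesis genes, 4 were called lower, with a median of -1.18. LEU1 had a log2 fold change of -1.59 and LEU2 of -1.18. The leu2 allele named in the labels bears on this branch, and its part was not tested.

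**Figure D4:**
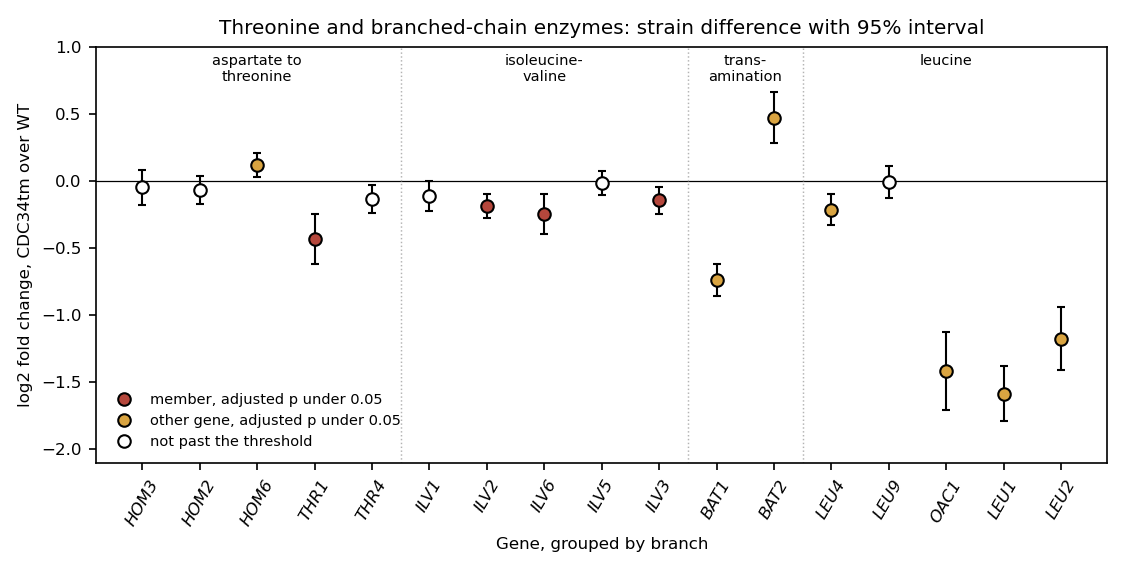
Log2 fold change of CDC34tm over WT with the 95% interval (y axis) for genes of the aspartate to threonine route, isoleucine-valine synthesis, branched-chain transamination and leucine synthesis (x axis). Red points are called genes among the 38, yellow points other called genes and open points genes not past the threshold; called genes of isoleucine-valine synthesis lie between -0.24 and -0.14, and LEU1, OAC1 and LEU2 at -1.59, -1.42 and -1.18.

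The calls depended on which WT cultures were included, and this differed in count between the pathways. Without WT replicates 1 and 4, 19 of the 38 genes were called lower and 0 higher, where 20.9% and 17.9% of all tested probe sets were. Without WT replicates 2 and 3, 8 were called lower and 0 higher, against 22.5% and 25.5% of all tested probe sets. LYS1, TRP4, ARO1, THR1, ILV2 and ILV6 were called lower in both of these fits and with all arrays. Their log2 fold changes were -0.43 to -0.19 with all arrays. In arginine synthesis 4 of 6 genes were called lower in the fit without WT replicates 1 and 4, and 0 in the fit without the other pair. In histidine synthesis these counts were 4 and 0 of 5. In isoleucine-valine synthesis they were 2 and 3 of 5, and in aromatic synthesis 3 and 2 of 8. The fits share the CDC34tm arrays, so the counts are not independent, and the difference between them was not tested. WT replicates 1 and 4 did not act alike when left out singly. Without WT replicate 4 alone 18 genes were called lower, where 971 of 5437 probe sets were. Without WT replicate 1 alone 8 genes were, where 964 of the probe sets were.

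**Figure D5:**
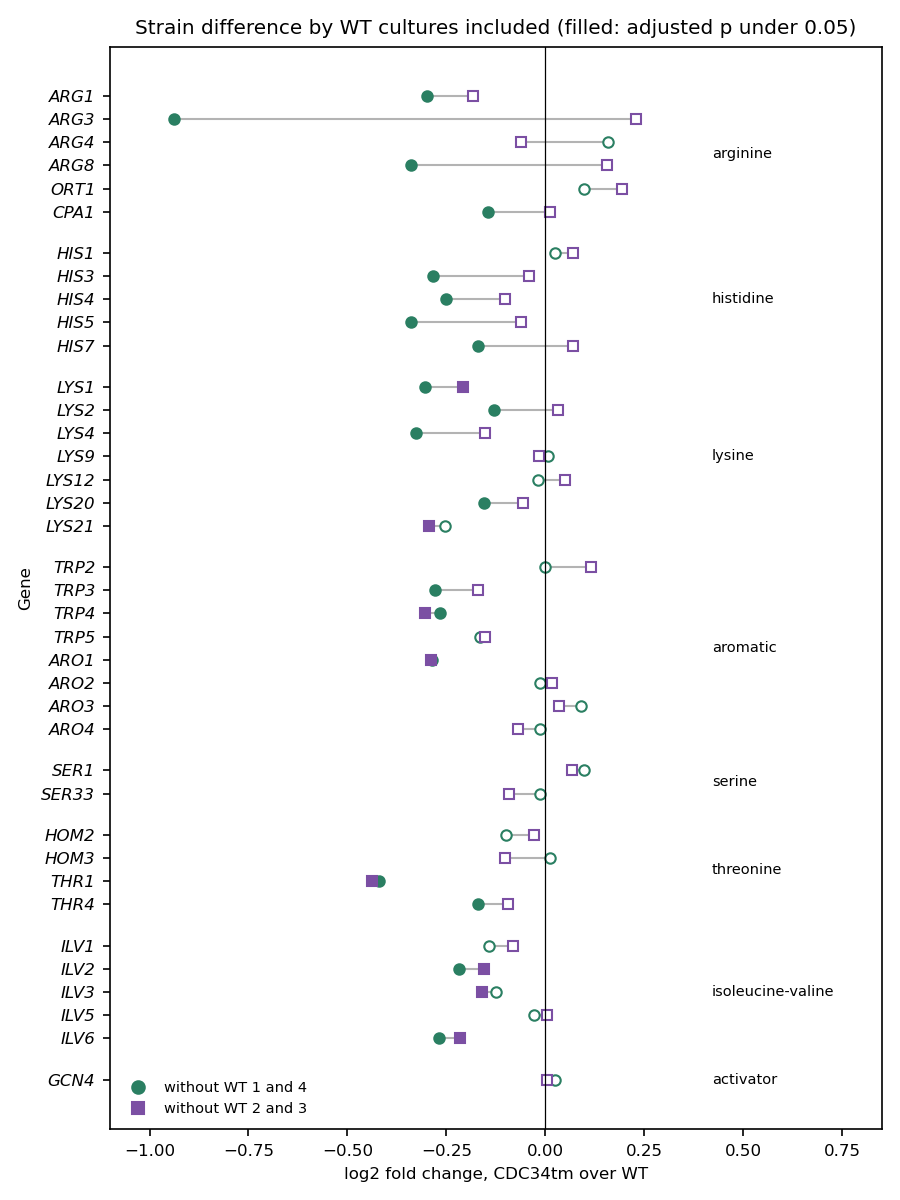
Log2 fold change of CDC34tm over WT (x axis) for each of the 38 genes, computed without WT replicates 1 and 4 (green circles) or without WT replicates 2 and 3 (purple squares); filled symbols have an adjusted p under 0.05. The circle and the square lie far apart for ARG3 (-0.94 and 0.23) and ARG8 (-0.34 and 0.15) and close together for THR1 (-0.42 and -0.44) and ARO1 (-0.29 and -0.29).

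Among the WT cultures, 14 of the 38 genes were higher on both WT replicates 2 and 3 than on both WT replicates 1 and 4, as were 35.1% of all tested probe sets. These were ARG3, ARG8, CPA1, HIS3, HIS4, HIS5, HIS7, LYS1, LYS2, LYS4, LYS20, TRP2, HOM2 and ILV2. The opposite order held for ARG4 and HOM3, where 25.4% of all tested probe sets showed it. WT replicate 4 was the lowest of the 4 WT arrays for 28 of the 38 genes, against 28.8% of all tested probe sets, and WT replicate 1 was the highest for 18, against 23.6%. The median log2 signal of the 38 genes was 13.02, 12.94, 12.95 and 12.85 on WT replicates 1 to 4. The CDC34tm cultures varied less. The median SD of the log2 signal over the 38 genes was 0.0886 in WT and 0.0568 in CDC34tm, where over all tested probe sets it was 0.131 and 0.0885. The SD was larger in WT for 30 of the 38 genes, as for 68.8% of all tested probe sets.

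Other genes around these pathways were called in both directions, beside the 19.7% lower and 18.9% higher of all tested probe sets. Of 15 further enzymes of the same pathways, BAT1 was lower, and ARO9, HOM6 and BAT2 were higher, with a median of 0.09. ARO9, an aromatic aminotransferase gene, was dim, with a mean signal of 64.8 ± 14.4 (SD) over the CDC34tm cultures and 40.7 ± 8.71 over the WT cultures (log2 fold change 0.51, limma adjusted p = 0.0316), and was not called without WT replicates 1 and 4 (0.146). Of 7 pathway regulators, ARG80, which acts in the arginine repressor complex, was lower (-0.34), and LYS14, the activator of lysine genes, was higher (0.17). The ARG80 call was lost without WT replicates 2 and 3 (adjusted p = 0.136), and the LYS14 call without either pair (0.0538 and 0.0779). Among 6 other genes that Gcn4 can activate, with a median of -0.05, GLN1, the glutamine synthetase gene, was lower and IDP1, a mitochondrial isocitrate dehydrogenase gene, higher. IDP1 lay at 0.33 on the log2 fold change scale (limma adjusted p = 0.0485), and at 0.12 without WT replicates 1 and 4 (0.235) and 0.53 without the other pair (6.75e-04). GLN1 read 3553, 3369, 4066 and 3489.7 in CDC34tm and 9809, 8959.7, 7562 and 9069 in WT, a log2 fold change of -1.28 (limma adjusted p = 1.01e-05). Of the 2 arginine breakdown genes, CAR1, for arginase, was lower (log2 fold change -0.60, limma adjusted p = 8.44e-04), and CAR2 was not called.

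Genes that act on the amount of Gcn4 protein were listed as well. Of 11 genes that act on GCN4 translation, 2 were lower and 3 higher, with a median of -0.03, against the same 19.7% and 18.9% of all tested probe sets. GCN1 (-0.24) and GCN20 (-0.16), which help activate the kinase Gcn2, were lower, and GCN2 itself was not called (0.07). GCD6 (0.39) and GCD1 (0.16), subunits of the exchange factor eIF2B, and SUI3 (0.14), a subunit of eIF2, were higher. Without WT replicates 1 and 4 the calls of GCN20 (adjusted p = 0.153) and SUI3 (0.0549) were lost. Of 9 genes for Gcn4 turnover, 2 were lower and 0 higher, with a median of -0.08. SSN3 (-0.37), a kinase that phosphorylates Gcn4, and HRT1 (-0.32), the RING subunit of SCF, were lower. CDC34 (0.01), the F-box gene CDC4 (-0.08), PHO85 (-0.05) and the Gcn4-directed cyclin gene PCL5 (0.02) were not called.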

How the data were processed

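The deposited table holds array intensities on a linear scale, for which the submitters' processing notes name MAS5. Its scaling target and version were not stated in what was used here. The trimmed mean without the top and bottom 2% was 1000.4 or 1000.5 on every array, and the arrays were not rescaled. A strain difference in the total mRNA of a cell is therefore invisible here.

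Probe sets were named from the platform table, with 12 symbols updated through RefSeq (R64). The 95th percentile of 1746 S. pombe probe sets on each array served as background. Of 5498 S. cerevisiae probe sets, 5437 exceeded it on at least 4 of 8 arrays. For these, log2(signal + 16) was fitted with limma 3.58.1 under R 4.3.3 (eBayes with a trend, two-sided, Benjamini-Hochberg over all 5437, threshold 0.05). Fold changes are on that scale. The fit was also run on simulated data with independent noise of the same SD in both strains. That simulation did not include the split among the WT cultures. The labels give separate cultures per strain, so p-values measure the spread between cultures, and the number of arrays limits the precision.

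Members and lists were chosen with earlier results of these data known. All 38 matched genes are named. Signals on every array are given for GCN4, called genes, the gene of each pathway with the largest change and the pairs LYS20/LYS21 and ARO3/ARO4. ARG8, TRP2, THR4, HOM6, BAT1, BAT2 and GLN1, and the 6 pairs tested as ratios, were added after their values were seen. The p-values of those pairs are therefore descriptive only. A planned search of promoters for the Gcn4 motif was not run because promoter sequences were not used here. Correlations of deviations between same-numbered cultures of the strains were -0.0754 to 0.227, and the main fit treated the cultures as unpaired. Cultures of different number were not correlated for comparison, so these values cannot tell whether same-numbered cultures were handled together. Alternatives were other pseudocounts, normalizations and filters, eBayes without the trend, the replicate block, averaging the probe sets of a gene and leaving out each array; leaving out WT replicates in pairs, for the 38 genes and the called genes of the other lists, was added after seeing the data.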

Additional observations from a re-analysis of the deposited data

Results flagged for a closer look

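Among the 76 sets of 4 cultures examined (38 genes in 2 strains), 2 held a culture far from the other 3, where chance gives about 5% of sets. Both concerned WT replicate 4 as the lowest culture. For HOM2 the gap to the next culture took 0.921 of the whole range of log2 signals in WT, with a signal of 10527 against 11491 to 11578 in the other WT cultures. For LYS12 the share was 0.838, with 10839 against 12176 to 12453. Neither gene was called between the strains.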

How the results depend on the processing

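The count of genes called lower, 13 of 38, was 8 after centring each array on its median, which also moved the calls over all probe sets from 1072 lower and 1028 higher to 889 and 1327. It was 8 without WT replicates 2 and 3, and 8 to 18 when 1 array was left out. The lowest counts came without WT replicate 1 or WT replicate 3 (8 each). The count called higher was 0, and 1 (SER1) after quantile normalization. The median log2 fold change was -0.05 after centring, with the median of all tested probe sets at 0.05, and -0.14 to -0.07 when 1 array was left out. With the replicate block 13 were called lower, and the block gave 0 called higher. Of the 13 calls, 7 held under all 17 other settings that keep at least 7 arrays (LYS1, LYS4, TRP4, ARO1, THR1, ILV2 and ILV6). LYS21 was lost without WT replicate 1 (adjusted p = 0.0528), and ARG1, HIS4, TRP3, TRP5 and ILV3 under 6 to 13 of them, with adjusted p from 0.05 to 0.167. Of the 25 genes not called, 18 were called under none of these 17 settings.

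Changes of sign occurred for 14 genes, none called with all arrays or in the fit where the sign changed, with adjusted p of 0.127 or above there. Of them, ARG3, ARG8, CPA1, HIS7 and LYS2 were called lower without WT replicates 1 and 4 (limma adjusted p = 1.91e-05 to 0.0462). After quantile normalization LYS9 was 0.0011 and ARO2 -0.0028. After centring LYS9 was 0.044, ARO4 0.0070, HOM3 0.0029 and ILV5 0.037. With 1 array left out GCN4 ranged from -0.0064 to 0.042, LYS9 from -0.042 to 0.022, LYS12 from -0.030 to 0.037, ARO2 from -0.024 to 0.016, ILV5 from -0.033 to 0.0098, ARG4 from -0.018 to 0.096 and ARG8 from -0.21 to 0.0023. Without WT replicates 1 and 4 LYS9 was 0.0061, LYS12 -0.020, TRP2 -0.0022, ARO2 -0.015 and HOM3 0.011. Without WT replicates 2 and 3 ARG3 was 0.23, ARG4 -0.061, ARG8 0.15, CPA1 0.011, HIS7 0.070, LYS2 0.031 and ILV5 0.0051. The cause of these changes was not tested. All 38 signals lay far above background.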
